A study of Mus musculus with 10 samples.

Results

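Interferon regulatory factors (IRFs) are transcription factors that share an amino-terminal DNA-binding domain and bind GAAA repeats in interferon-response elements. The members described were Irf1, Irf2, Irf3, Irf4, Irf5 and Irf8, chosen by gene symbol: every probe set that the platform annotation gives to exactly 1 of these symbols was taken. There were 12 such probe sets of the 45101 on the array, namely 1 each for Irf1 and Irf2, 4 for Irf3, and 2 each for Irf4, Irf5 and Irf8. All 12 lay above the limit of 4.04 log2 units under which the dimmest 30% of probe sets fell. The 10 arrays held RNA of mouse leukemias of the T lineage (T-ALL, acute lymphoblastic) driven by ICN1, activated NOTCH1. All leukemias, controls included, carried a ROSCreERT2 transgene, which encodes a tamoxifen-inducible Cre recombinase, and a pair of floxed CnB1 alleles. CnB1, now Ppp3r1, encodes the regulatory subunit of the phosphatase calcineurin. Leukemic secondary recipient mice had received either tamoxifen, which deletes CnB1 (TAM, 5 arrays), or corn oil, which leaves it in place (OIL, 5 arrays), so TAM joins the drug and the deletion. Marrow cells, over 50% of them leukemic, had been sorted on GFP or a like marker. Sex and age of the mice, and whether each array stands for 1 mouse, were not stated in the labels.

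IRF4 is a lymphoid member of the family that antigen receptor signalling induces through NF-kB, and it directs effector T cell and plasma cell programmes, often on composite sites with BATF-JUN or PU.1. IRF8 is its closest relative, needed by dendritic and myeloid cells and used in B cells. IRF1 is an interferon-gamma-induced activator of antigen presentation genes, IRF2 competes with it at the same sites, and IRF3 and IRF5 act downstream of innate immune sensors. Calcineurin activates NFAT factors after calcium entry. The comparison asked which IRF transcripts differ in T-ALL between tamoxifen, which deletes CnB1, and corn oil.

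The promoter windows of 4 members are shown. That of Irf4 was taken because it is the member called between treatments, in some fits but not in the main one. Those of Irf1, Irf2 and Irf8 were taken because they hold matches to elements that interferon signalling is known to use. Each window runs from 250 bases before to 50 after an annotated start (RefSeq, GRCm38.p6, plus strand). Capitals mark matches on either strand to GGAAA (the core of NFAT sites), TTCNNNGAA (GAS, a STAT element), the core of the interferon-stimulated response element (ISRE, a tandem of GAAA with 2 free bases between), the ETS-IRF composite element (the same tandem with GGAA as its first part), TGANTCA (AP-1) and the NF-kB consensus, and where matches overlap the capitals run together.
Irf4 chr13:30748983-30749282: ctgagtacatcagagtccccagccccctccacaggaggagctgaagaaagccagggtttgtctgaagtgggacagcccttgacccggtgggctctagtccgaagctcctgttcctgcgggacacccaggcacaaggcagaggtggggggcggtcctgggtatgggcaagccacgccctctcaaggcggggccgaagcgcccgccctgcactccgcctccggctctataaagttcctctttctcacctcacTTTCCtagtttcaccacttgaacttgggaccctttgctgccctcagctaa
Irf1 chr11:53769764-53770063: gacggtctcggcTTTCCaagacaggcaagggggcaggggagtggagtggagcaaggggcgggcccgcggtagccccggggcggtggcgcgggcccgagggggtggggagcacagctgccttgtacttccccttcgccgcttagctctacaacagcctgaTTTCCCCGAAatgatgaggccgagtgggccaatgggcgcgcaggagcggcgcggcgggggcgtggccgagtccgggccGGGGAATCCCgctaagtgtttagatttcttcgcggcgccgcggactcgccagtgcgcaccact
Irf2 chr8:46739495-46739794: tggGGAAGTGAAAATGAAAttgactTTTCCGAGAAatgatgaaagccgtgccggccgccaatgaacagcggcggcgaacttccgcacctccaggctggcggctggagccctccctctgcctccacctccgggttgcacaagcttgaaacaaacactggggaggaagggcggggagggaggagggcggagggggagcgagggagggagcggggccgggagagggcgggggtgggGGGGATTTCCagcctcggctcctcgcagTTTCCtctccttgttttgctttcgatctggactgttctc
Irf8 chr8:120736108-120736407: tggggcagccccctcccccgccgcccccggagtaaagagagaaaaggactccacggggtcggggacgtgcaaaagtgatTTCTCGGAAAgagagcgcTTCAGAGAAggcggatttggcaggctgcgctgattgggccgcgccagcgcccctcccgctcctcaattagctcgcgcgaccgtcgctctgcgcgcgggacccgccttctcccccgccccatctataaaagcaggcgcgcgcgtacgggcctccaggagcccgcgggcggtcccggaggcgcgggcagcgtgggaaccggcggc

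The Irf4 window held 1 match, an NFAT core on the minus strand that covers the first 5 transcribed bases. That core is common: 61.3% of all 32851 mouse windows of 300 bases hold it. The Irf1 window held a GAS at -90 to -82, overlapping an NFAT core at -91 to -87, another NFAT core at -238 to -234, and an NF-kB consensus at -13 to -4. Irf2 held an ISRE core at -241 to -232 that overlaps an ETS-IRF element at -247 to -238, a GAS at -224 to -216 and an NF-kB consensus at -17 to -8, beside 3 NFAT cores. Irf8 held a GAS at -171 to -163 that overlaps an NFAT core at -166 to -162, and another GAS at -153 to -145. Of all windows, 8.3% hold a GAS, 3.44% an ISRE core, 2.72% an ETS-IRF element, 7.81% an AP-1 element and 4.51% the NF-kB consensus. The Irf3 window held NFAT cores alone among these motifs, and that of Irf5 held none of these letters. A second annotated start of Irf8 held NFAT cores alone, and that of Irf1 no match. These are matches of letters in short windows, and binding was not measured. The genes lie at chr13:30749233-30766981 (Irf4), chr11:53770014-53778374 (Irf1), chr8:46739745-46847458 (Irf2), chr8:120736358-120756694 (Irf8), chr7:44997648-45002848 (Irf3) and chr6:29526130-29541869 (Irf5).

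Ppp3r1, the deleted gene, was lower in TAM on its dimmer probe set, with a mean difference of -2.06 log2 units and in 5 of 5 labels, and with OIL arrays from 4.49 to 6.04 and TAM arrays from 3.02 to 3.59. These TAM values lie under the limit of 4.04, so the difference may understate the drop. Its brighter probe set differed by -0.12. The replicate labels 204, 206, F3.1, F3.2 and F3 occur in both groups (lists of values below keep this order) once a final number is dropped from F3.1 and F3.2, and arrays of 1 label deviated together from their group means (r from 0.258 for F3.2 to 0.754 for F3 over probe sets). Arrays of different labels were not compared in this way, so these correlations do not show which arrays pair within the F3 labels. On the basis of the shared labels, changes were also tested with the label as a replicate block. T cell markers were bright on all arrays (11 markers, summed linear signal 31600 to 36800). Those of B cells (5 markers, 94.2 to 125), dendritic cells (5 markers, 136 to 181) and erythroid cells (3 markers, 90.6 to 120) were dim. Markers of monocytes, macrophages and granulocytes ranged from 269 to 2140 over 9 markers. The 3 NK cell markers summed to 5660 to 10200, nearly all of it Gzma, with Ncr1 and Nkg7 at 4.57 and 4.98 log2 units in the mean of all arrays.

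Irf4 transcripts rose in the tamoxifen-treated leukemias when arrays of 1 label were compared with each other. On the brighter probe set (1421173_at) the OIL arrays of labels 204, 206, F3.1, F3.2 and F3 read 7.83, 8.22, 8.07, 8.19 and 8.60 log2 units. Their TAM counterparts read 8.79, 9.01, 8.93, 9.21 and 9.57. Every TAM array stood above every OIL array, the lowest TAM value exceeding the highest OIL value by 0.19. Such separation upward was seen for 0.83% of all probe sets. The OIL mean was 8.18 ± 0.28 and the TAM mean 9.10 ± 0.30 (SD, n = 5), which differ by 0.92 log2 units or 1.89-fold (95% interval 0.55 to 1.29). In bulk samples, more cells with a transcript and more transcript per cell cannot be told apart.

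**Figure D1:**
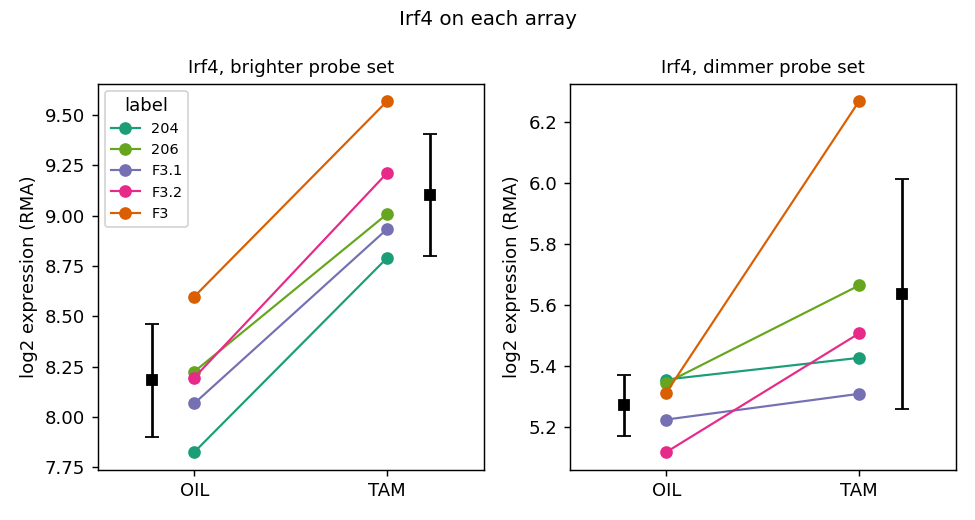
Irf4 log2 expression (RMA) on each array for both probe sets, OIL on the left and TAM on the right of each panel; lines join arrays of 1 label, and squares with bars are group means with SD (n = 5). The 5 lines of the brighter probe set run nearly parallel, from 7.83 to 8.60 in OIL and from 8.79 to 9.57 in TAM, while on the dimmer one label F3 stands out at 6.27 in TAM.

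The 5 label differences of this probe set were 0.96, 0.78, 0.87, 1.02 and 0.97. Their SD was 0.09, against an SD of about 0.3 between the arrays of either group. The labels thus differed in their Irf4 level but little in its change: label F3 was highest and 204 lowest in both groups. With the label as a replicate block, limma gave an adjusted p of 0.00545 over all 45037 probe sets, and the probe set ranked 1 of them by p. Without the block it missed the threshold (adjusted p = 0.0983, rank 89), and with 1 probe set per gene it missed it too over all 18193 genes (0.056) but passed over the 12735 left once the dimmest 30% were removed (0.0488). The two-sided exact permutation p over the 10 arrays, a test that ignores the labels, was 0.00794, the smallest that 5 against 5 can give. The called shares were 1.3% of all probe sets with the block, 0.0733% without it and 0.471% of the 12735 genes.

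The Irf4 change was of like size in the label families. It was 0.87 within labels 204 and 206 and 0.95 within F3, F3.1 and F3.2. The difference between these was 0.08 (interaction in limma, unadjusted p = 0.809, adjusted p = 1), with a standard error of 0.31. The level of Irf4 was 0.30 higher in the F3 labels, which did not pass (limma adjusted p = 0.317). Leaving out any 1 label from the blocked fit kept the call, with changes of 0.90 to 0.95 and limma adjusted p from 0.00407 to 0.0344.

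The dimmer Irf4 probe set (1421174_at) was also higher in TAM in 5 of 5 labels, but by 0.36, and unevenly. It ran from 5.12 to 5.36 in OIL and from 5.31 to 6.27 in TAM. The label differences were 0.07, 0.32, 0.08, 0.39 and, in F3, 0.96, so the groups overlapped and label F3 alone came near the change on the brighter probe set. It did not pass in limma without (adjusted p = 0.501) or with the block (0.207), and its exact permutation p was 0.0317. Its mean lay at the 55.7th percentile of all probe sets, against the 87.1st for the brighter one. The place of either probe set on the Irf4 transcripts was not determined here.

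**Figure D2:**
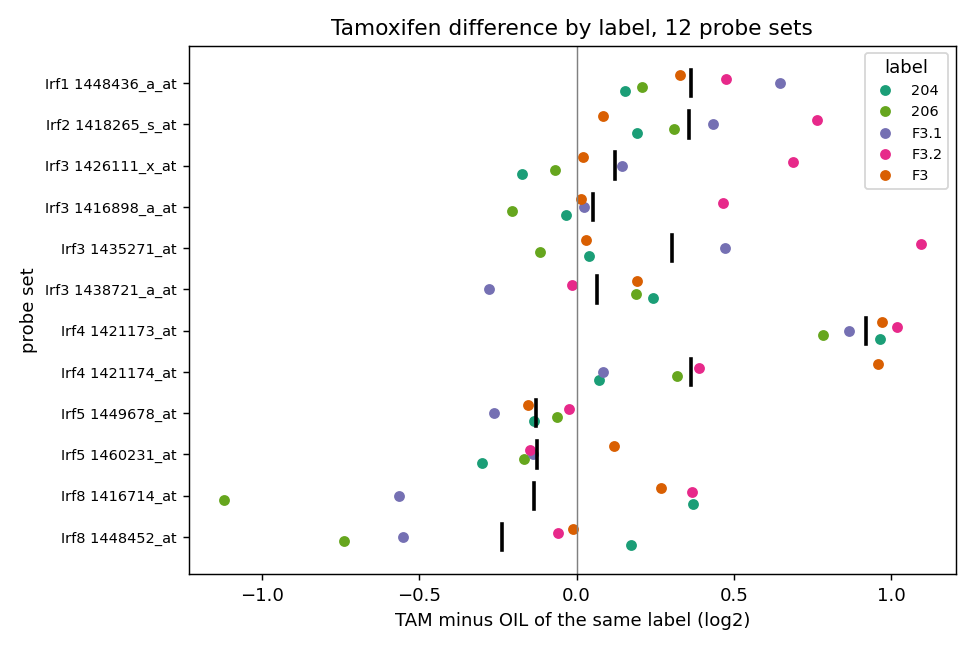
TAM minus OIL within each label (log2) for the 12 probe sets; points are labels and the black bar is their mean. The brighter Irf4 probe set has its 5 points between 0.78 and 1.02. Single labels come near or above this elsewhere, at 1.09 for Irf3 1435271_at (F3.2), 0.96 for the dimmer Irf4 probe set (F3) and 0.76 for Irf2 (F3.2), and the points of Irf8 lie on both sides of 0.

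Of the 12 probe sets, 1 was called with the replicate block, that of Irf4, against 1.3% of all probe sets, 0.706% as higher. Without it limma called 0, against 0.0733%, and 3 had an unadjusted p under 0.05, against 9.65%. With the block 4 did, against 17.1%. In the same direction in all 5 labels were 4 that were higher, against 7.23% of all probe sets, and 1 that was lower, against 9.47%. The median change of the 12 was 0.09 and that of all probe sets -0.02.

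Irf1 was higher in TAM in 5 of 5 labels without passing. Its probe set (1448436_a_at) read 9.41, 9.26, 9.26, 9.19 and 9.57 in OIL, and 9.56, 9.47, 9.91, 9.67 and 9.89 in TAM. The groups overlapped through OIL F3, which exceeded TAM 204 and TAM 206. The difference of 0.36 (95% interval 0.13 to 0.60) had a limma adjusted p of 0.303 without and 0.0924 with the block, and an exact permutation p of 0.0238. By label it ran from 0.15 in 204 to 0.65 in F3.1, with a mean of 0.18 in 204 and 206 and of 0.48 in the F3 labels, a difference that did not pass (limma, unadjusted p = 0.143, adjusted p = 1).

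Irf2, the antagonist of IRF1 at shared sites, was likewise higher in 5 of 5 labels, by 0.36 in the mean, without passing (limma adjusted p = 0.521 without and 0.138 with the block, exact permutation p = 0.0873). The probe set (1418265_s_at) read 8.38, 8.20, 8.14, 7.93 and 8.88 in OIL, and 8.57, 8.51, 8.57, 8.70 and 8.96 in TAM. OIL F3 stood above all TAM arrays but its own partner. Its label difference was also the smallest, at 0.08, against 0.76 for F3.2, whose OIL array was the lowest. The probe set name ends in _s_at, which marks probes that can match transcripts of more than 1 gene.

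The 4 probe sets of Irf3, the factor that induces interferon-beta, differed by 0.05 to 0.30 and none passed (limma adjusted p from 0.645 to 0.946, and with the block from 0.393 to 0.819). They were not alike. On the brightest (1426111_x_at) the values ran from 9.37 to 9.74 in OIL and from 9.27 to 10.06 in TAM, with label differences of -0.17, -0.07, 0.14, 0.69 and 0.02. Probe set 1435271_at followed it across the 10 arrays (r = 0.945) and reached 1.09 in F3.2, while 1438721_a_at did not (r = 0.05) and was lower in TAM in F3.1 and F3.2. Label F3.2 thus carried the largest Irf3 difference on 3 of 4 probe sets. A name ending in _x_at marks probes that can cross-hybridise.

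Irf5, which acts downstream of Toll-like receptors in myeloid and B cells, was slightly lower in TAM. Its brighter probe set (1449678_at) ran from 7.40 to 7.65 in OIL and from 7.27 to 7.48 in TAM, lower in 5 of 5 labels by 0.02 to 0.26. The mean difference was -0.13 (95% interval -0.27 to 0.02, limma adjusted p = 0.584 without and 0.351 with the block, exact permutation p = 0.0317). The dimmer one (1460231_at) also differed by -0.13, from 5.32 ± 0.11 to 5.19 ± 0.07 (SD, n = 5), and was lower in 4 of 5 labels, with F3 the exception at 0.12. It did not pass (limma adjusted p = 0.601 and 0.42, exact permutation p = 0.0635).

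**Figure D3:**
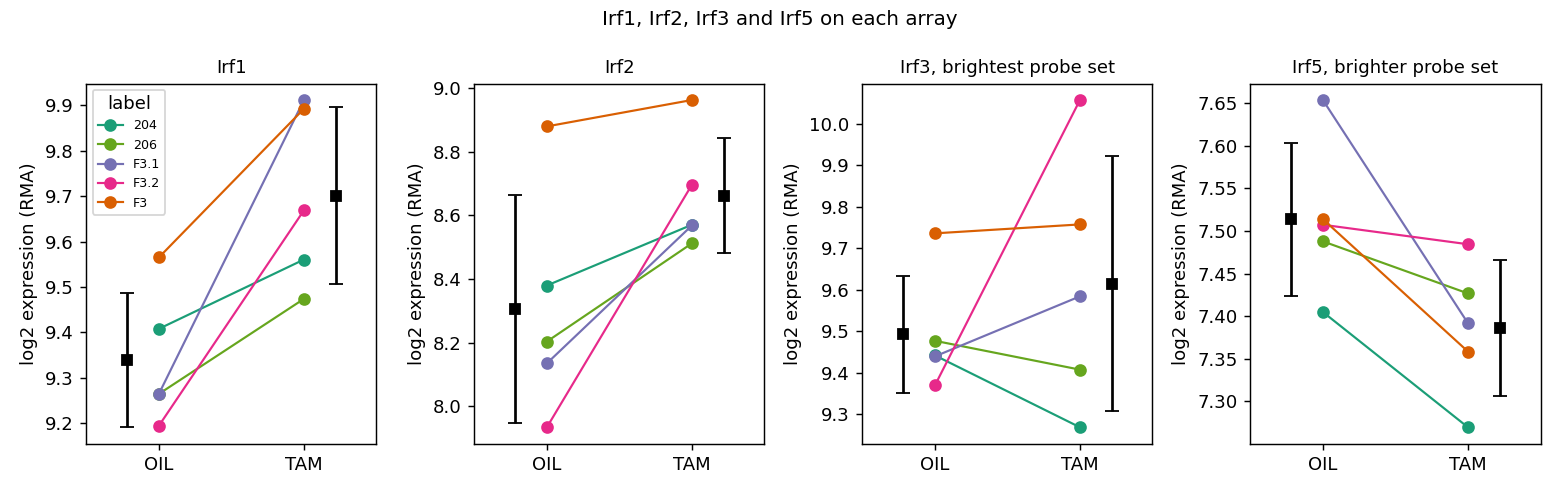
Irf1, Irf2, the brightest Irf3 and the brighter Irf5 probe set on each array (log2 expression, RMA), drawn as for Irf4, each panel with its own axis that does not start at 0. Irf1 and Irf2 are higher in TAM along every line with OIL F3 the highest OIL array, the Irf3 lines cross, and the Irf5 label differences reach at most -0.26.

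Irf8 separated the leukemia labels and not the treatments. On 1448452_at the arrays of 204 and 206 read 6.87 and 7.92 in OIL and 7.05 and 7.18 in TAM. Those of F3.1, F3.2 and F3 read 6.52, 6.35 and 6.04 in OIL and 5.97, 6.29 and 6.03 in TAM. All 6 arrays of the F3 labels lay below all 4 of 204 and 206, with a gap of 0.35, as they did for 3.91% of all probe sets. The means were 6.20 ± 0.22 (SD, n = 6) and 7.25 ± 0.46 (SD, n = 4). The difference of -1.05, or 2.08-fold, adjusted for treatment, passed in limma (adjusted p = 0.01), also with the label as a random block (0.0266) and whichever 1 array was left out (0.00457 to 0.0375). Of all probe sets, 4.49% were called between the label families, 2.57% as lower in the F3 labels.

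The other Irf8 probe set (1416714_at) gave the same order. Its F3 label arrays lay between 5.49 and 6.91 and those of 204 and 206 between 6.98 and 8.20, with a gap of 0.07. Its difference of -1.19 missed the threshold (limma adjusted p = 0.0662) and passed it without TAM F3.2 (-1.36, 0.0307). Across the 10 arrays these probe sets correlated at 0.925. The labels do not say what the names stand for. Arrays of 1 label may share a leukemia, and F3, F3.1 and F3.2 may be 1 leukemia too, so the number of independent leukemias behind this difference is unknown and may be under 5. Irf8 was the member called in this comparison: the other 10 probe sets had limma adjusted p from 0.292 to 0.987.

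With tamoxifen, Irf8 differed in no common direction. The label differences on 1416714_at were 0.37, -1.12, -0.57, 0.37 and 0.27, and on 1448452_at 0.17, -0.74, -0.55, -0.06 and -0.01. The means of -0.14 and -0.24 did not pass (limma adjusted p = 0.953 and 0.877), with wide 95% intervals of -1.16 to 0.89 and -1.03 to 0.56. OIL 206, at 8.20 and 7.92, was the highest array on both probe sets, and without it both means turned positive, to 0.22 and 0.06, still without passing. With both arrays of label 206 left out of the blocked fit, the means were 0.11 and -0.11 (limma adjusted p = 0.789 and 0.699).

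**Figure D4:**
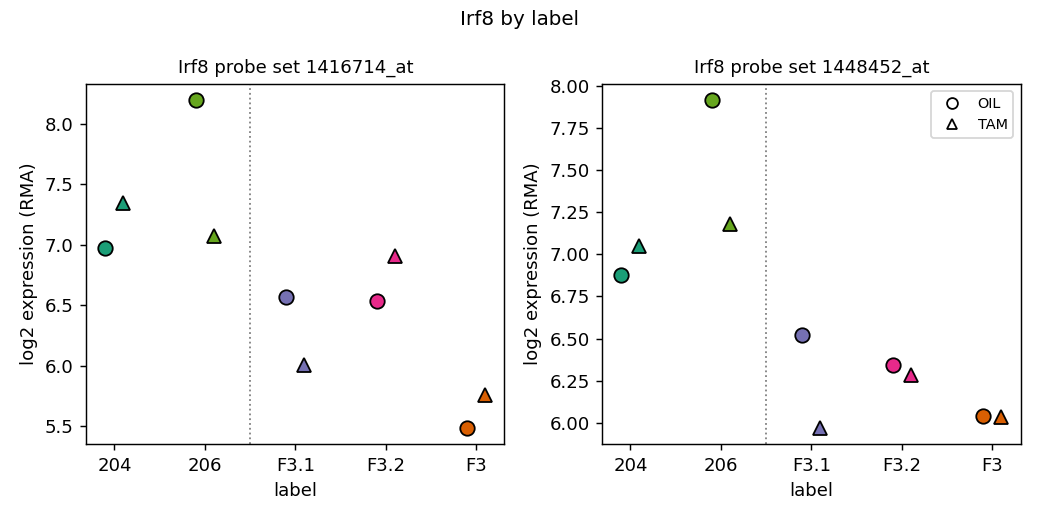
Irf8 log2 expression (RMA) on each array by label for both probe sets, circles for OIL and triangles for TAM, with a dotted line between labels 204 and 206 and the F3 labels. All points right of the line lie below all points left of it, by 0.07 and 0.35, and OIL 206 is the highest at 8.20 and 7.92.

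Cells that also express IRF4, IRF5 or IRF8 were followed by their markers. Between the label families, the summed signal of the 5 dendritic cell markers was 136 to 164 in 204 and 206 and 146 to 181 in the F3 labels, and that of the 5 B cell markers 103 to 109 and 94.2 to 125. The summed signal of the 9 myeloid markers was 269 to 488 in 204 and 206 and 378 to 2140 in the F3 labels, ranges that overlap. Taken 1 by 1, these markers had a median difference of only 0.18 log2 units, higher in the F3 labels. Of the 9, 0 were called between the families. S100a8 and S100a9, genes of granulocytes, differed by 1.99 and 1.78 between the families without passing (limma adjusted p = 0.0909 and 0.143) and are named here after their values were seen. The part of such cells in the Irf8 difference was not tested. Between treatments, all 5 B cell and all 5 dendritic markers were lower in TAM, by 0.01 to 0.30, as were 62.5% of all genes at their brightest probe set, and limma called 0 of them in either fit. Without the block 2 B cell and 1 dendritic marker had an unadjusted p under 0.05, against 11.1% of all genes. The myeloid signal was 269 to 1170 in OIL and 372 to 2140 in TAM. By label it was 269, 422, 707, 378 and 1170 in OIL and 488, 372, 544, 1090 and 2140 in TAM. TAM F3, the array highest for Irf4, was also the highest for the myeloid markers. In labels 206 and F3.1, however, the myeloid signal was lower in TAM, while Irf4 was higher by 0.78 and 0.87. The part of myeloid cells in the Irf4 difference was not tested.

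Genes around the IRFs were taken from 7 lists, with 1 probe set per gene, that of the highest mean. Over all 18193 genes so chosen, 0.115% were called without the block, 0.066% as higher, and 1.69% with it. An unadjusted p under 0.05 was found for 11.1% without and for 18.3% with the block, 62.5% were lower in TAM, and the median difference was -0.04. Symbols without a probe set of their own in the annotation are left out of the counts. Of the other IRF genes and IRF-binding proteins, all given here though none was called, limma called 0 of 5 in either fit, and without the block 3 had an unadjusted p under 0.05. Irf9, the DNA-binding subunit of the interferon-stimulated complex ISGF3, was 0.59 higher (adjusted p = 0.155 without and 0.0688 with the block), Irf2bpl 0.42, Irf2bp1 0.16, Irf2bp2 -0.05 and Irf7 -0.28.

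Upstream regulators of Irf4 in lymphocytes were measured for 13 genes, of which 2 rose without and 3 with the block, and 0 fell. Nr4a1, an orphan nuclear receptor induced by antigen receptor signals, rose by 2.50 (limma adjusted p = 0.00749), with means of 6.73 ± 0.67 and 9.22 ± 0.11 (SD, n = 5). The NF-kB subunit Relb rose by 0.71 (adjusted p = 0.0287), with means of 5.05 ± 0.16 and 5.76 ± 0.14. Both were higher in 5 of 5 labels. Nfatc2, an NFAT factor and thus a substrate of calcineurin, rose by 0.71 in the blocked fit (limma adjusted p = 0.025, otherwise 0.0607), but its 5 other probe sets differed by -0.13 to 0.11. The median over the 13 genes was 0.21, and 11 were higher in TAM. The list does not separate genes that raise Irf4 from genes that restrain it, so these counts give no direction of input to Irf4.

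Partner proteins of IRF4 and IRF8, most but not all of them DNA-binding factors, were measured for 15 genes. Without the block, 0 were called in limma and 4 had an unadjusted p under 0.05. With it 2 rose and 1 fell. The AP-1 subunit Junb rose by 0.53 (limma adjusted p = 0.0168) beside Nfatc2, listed here too, and the Ikaros family factor Ikzf3 fell by 0.75 (0.0323), with -0.44 and 0.58 at its 2 other probe sets. Without passing, the partners Batf (0.71), Spib (0.91) and Def6 (0.18) were higher in 5 of 5 labels, as were 7.23% of all probe sets. Their limma adjusted p was 0.0813, 0.13 and 0.219 with the block and 0.462, 0.569 and 0.554 without it. Ikzf1 (-0.34) was lower in 5 of 5 labels, as were 9.47% of all probe sets. It did not pass either (limma adjusted p = 0.0692 with and 0.556 without the block). These uncalled genes are named here after their values were seen. Of the 15 genes, 8 were higher and 7 lower, with a median of 0.08, against 62.5% of all genes lower.

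Of 10 genes reported to depend on IRF4 in lymphocytes, 0 were called in limma without the block, 2 having an unadjusted p under 0.05, and 1 rose with it. This was Il10, an anti-inflammatory cytokine, which rose by 1.75, with means of 6.80 ± 1.02 and 8.56 ± 0.43 (SD, n = 5). Its limma adjusted p was 0.0166 in the blocked fit and 0.202 otherwise. The list median was 0.23, with 7 higher and 3 lower.

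Of 27 targets of interferon and IRF1, 13 were higher and 14 lower, with the 62.5% above as background, and a median of -0.01. Without the block 0 were called in limma, 3 having an unadjusted p under 0.05, and with it 2 rose and 1 fell. The interferon-induced GTPase Gbp2 rose by 0.74 (limma adjusted p = 0.0137 with the block), and tapasin (Tapbp), which loads peptides on MHC class I, rose by 0.48 (0.0348). Tap2, a subunit of the peptide transporter, fell by 0.61 (0.0387). Of 14 sensors, adaptors and kinases that activate IRF3 and IRF5, 3 were higher and 11 lower with a median of -0.06, and of 12 interferon receptors, JAKs and STATs 7 were higher and 5 lower with a median of 0.03. In these lists limma called 0 in either fit, and in each of them 2 genes without and 4 with the block had an unadjusted p under 0.05.

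**Figure D5:**
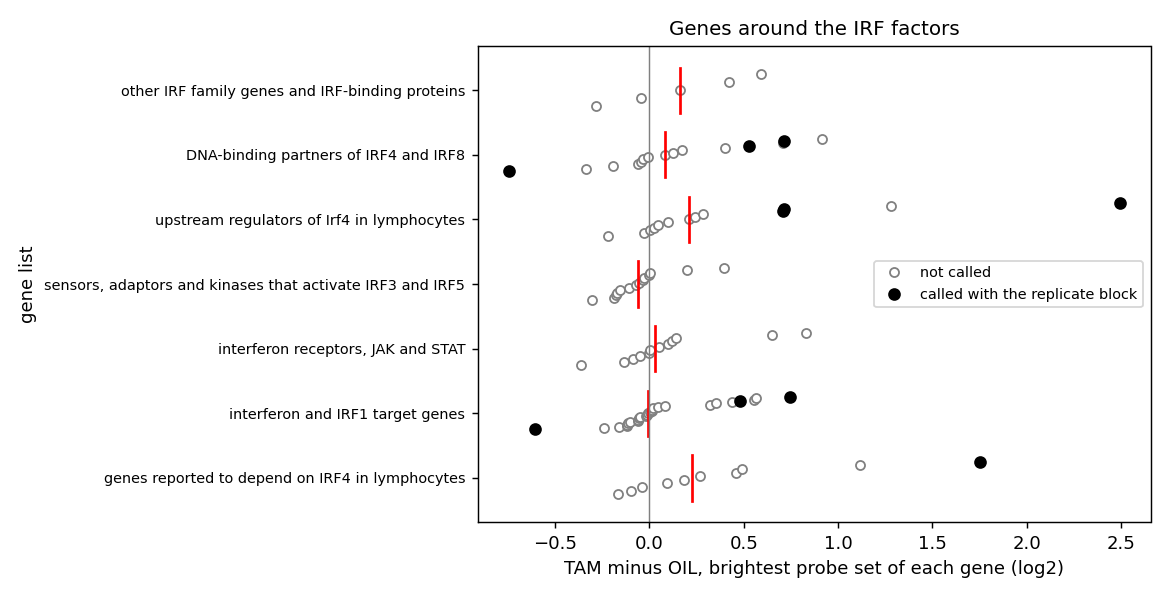
TAM minus OIL (log2) of the brightest probe set of each gene in the 7 lists; each point is 1 gene, filled where called with the replicate block, and the red bar is the list median. Most points lie near 0, with Nr4a1 at 2.50 and Il10 at 1.75 farthest to the right.

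Genes patterned like Irf4 were ranked by Pearson correlation with its brighter probe set over the 10 arrays, among 25935 probe sets. Highest were Zswim6 (0.967), Hivep1, a zinc finger protein that binds NF-kB sites (0.956), Nrarp, a feedback regulator of NOTCH (0.955), Cdyl2 (0.949) and Plekha3 (0.941), all of which share the TAM and OIL groups with Irf4. Their own TAM minus OIL differences ran from 0.38 for Plekha3 to 1.21 for Cdyl2. Once group means were subtracted, which leaves the differences among labels, the highest were Crhbp (0.976), Wipi2, Ankrd13c (0.968), Zfp707 (0.966) and Plpp6 (0.96). No gene was in both sets of 5. On the same footing, the highest for Irf1 was Snx25 (0.968), for Irf2 Ing3 (0.979), for Irf3 Arrdc1 (0.976), for Irf5 Zbtb8b (0.974) and for Irf8 Tarsl2 (0.964). These correlations are a description of 10 arrays that share their groups and labels.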

How the data were processed

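Expression was measured on 10 oligonucleotide arrays, 5 OIL and 5 TAM, from 200 ng of total RNA each. Per the submitters' processing notes the authors deposited log2 expression values made with RMA, a method of background correction, quantile normalization and summary per probe set, whose version was not stated there. Values ran from 1.74 to 14.02, with array medians from 5.08 to 5.13. Precision is limited by the number of arrays.

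From these values, 64 control probe sets were left out and 45037 were tested one by one with limma 3.58.1 (lmFit, eBayes) in R 4.3.3, without a filter in the main fits so that every member was tested, and called at a Benjamini-Hochberg adjusted p under 0.05. The platform annotation gave 34945 of them 1 gene symbol, 932 several and 9160 none; symbols are as in that annotation. The fit without a block had 8 residual degrees of freedom and the fit with the label as a replicate block 4. Pairing rests on the labels, shortened for F3.1 and F3.2. Same-label deviations correlated at 0.694, 0.692, 0.58, 0.258 and 0.754 for 204, 206, F3.1, F3.2 and F3, all above the limit of 0.1. Correlations between different labels were not set beside them, so they cannot settle the pairing of F3.1 and F3.2. Label families were compared by an additive fit with treatment and by an interaction. Exact permutation tests over the 10 arrays were two-sided, over 252 assignments that ignore the labels. They were run for the 12 member probe sets and Ppp3r1 without further adjustment. Motif and list summaries used Python 3.11.15 with numpy 2.4.6 and pandas 2.3.3, and the fits were tested on simulated data.

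The labels do not say that arrays are separate mice, so p-values measure the spread between these samples. The members, the lists and the tests were chosen with earlier results of these data known. List genes were named where called in either fit, up to 4 per direction, beside exceptions marked as such; marker genes were named for description. Alternatives covered the block, dim probe sets, 1 probe set per gene with and without the dimmest 30% of genes, normalization, eBayes settings, array weights and leaving out each array.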

Additional observations from a re-analysis of the deposited data

Results flagged for a closer look

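Irf3 label differences were opposite in sign between the label families on 2 probe sets: below 0 for 204 and 206 and above 0 for F3.1, F3.2 and F3. On 1426111_x_at the tamoxifen difference was 0.41 log2 units larger in the F3 labels, and on 1416898_a_at 0.29 larger. The interaction test in limma passed for neither (unadjusted p = 0.0986 and 0.308, adjusted p = 1 for both, over 45037 probe sets). On 1416898_a_at labels F3.1 and F3 lay near 0, at 0.02 and 0.01.

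On the Irf3 probe set 1435271_at, the OIL F3 array stood apart from the other 4 OIL arrays at 6.68, its gap to the next covering 0.717 of the group's range against a limit of 0.71 for 5 samples. This was 1 of 24 groups tested, and chance gives about 1 in 20.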

How the results depend on the processing

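Limma called 33 of 45037 probe sets between TAM and OIL without a block. It called 584 with the label as a fixed replicate block, 566 with it as a random one, 169 with the label family as covariate, 60 genes with the brightest probe set of each and the dimmest 30% of genes left out, 50 with array weights and 13 with OIL F3.1 and OIL F3.2 averaged, and 13 to 44 when 1 array was left out, with 13 without OIL F3.1 or OIL F3.2, 14 without TAM 204, 17 without TAM F3.1 and 18 without OIL 204. In alternatives added after seeing the data, the blocked fit called 176, 249, 108, 760 and 187 without label 204, 206, F3.1, F3.2 and F3, and the fits within F3 labels and within 204 and 206 called 6 and 0 (3673 and 3524 at an unadjusted p under 0.05). The cause of these shifts was not tested. Between label families the count was 2024, with 1066 under the random block and 1063 to 2123 when 1 array was left out, lowest without OIL 204 (1063), TAM 204 (1081), TAM 206 (1141), OIL F3.1 (1218) and OIL 206 (1291). The interaction gave 0, and 0 to 4 when 1 array was left out, 4 without TAM 206.

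For the brighter Irf4 probe set the difference stayed between 0.80 and 1.02 over the alternatives that keep probe sets apart. It was called in the fit per gene without dim genes (0.0488, but 0.056 with them, an alternative added after seeing the data) and in the 8 alternatives over both label families with a label block or a family term, and in 0 of 10 that left out 1 array without a block (limma adjusted p from 0.0603 to 0.295). The mean of both probe sets gave 0.64 (adjusted p = 0.118). Of the other members, Irf8 aside, none was called under any alternative, between treatments or between families. Signs turned without a call in 15 of 342 values for TAM against OIL, all for Irf3 or Irf8. No called value reversed.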
